A study of Homo sapiens with 8 samples.

Results

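RNA from 8 genes of cholesterol synthesis was followed across 4 conditions of IMR90 cells, human fetal lung fibroblasts. The genes were SREBF2, INSIG1, HMGCS1, IDI1, FDFT1, SQLE, LSS and DHCR7, taken by their gene symbol from the 28265 genes counted in each library. They encode 6 enzymes of the pathway from acetyl units to cholesterol, together with its transcriptional regulator and an anchor of that regulator, but no uptake receptor is among them. "Factory" RNA-Seq sequences RNA that stays attached to transcription factories in the nucleus and is thereby enriched for nascent transcripts. Counts over exons were used here, whereas the paper took its nascent RNA changes from intronic reads. All libraries came from low passage cells grown to near confluence. There were 2 libraries each from cells labelled young, called control here, from cells treated for 3 days with ICM, from cells treated for 6 days with ICM, and from cells labelled MetaICM. ICM (inflachromene) is a small molecule that binds the chromatin proteins HMGB1 and HMGB2. The series describes the last group as metaICM-treated, with no further account of the compound or the duration, and whether control cells received a vehicle is not given in the sources used here. Nor is it given whether the 2 libraries of a condition came from separate cultures, so that p-values measure the spread between libraries, which may be technical.

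Cells make cholesterol in the endoplasmic reticulum from acetyl-CoA, by way of mevalonate, isoprenoid units, squalene and lanosterol. SREBF2 encodes SREBP-2, a transcription factor that is held in the endoplasmic reticulum membrane while sterols are plentiful. When sterols run low it is carried to the Golgi, cut, and its released part enters the nucleus to activate genes of cholesterol synthesis and uptake, its own gene and INSIG1 among them. INSIG1 encodes one of the proteins that retain the SREBP complex in the endoplasmic reticulum, and so closes a negative feedback loop.

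The SREBP-2 binding sequence, the sterol regulatory element, often lies close to a gene's start beside a CCAAT box, bound by NF-Y, and GGGCGG, bound by Sp1. RefSeq promoter windows (build GRCh38.p14, from 250 bases before to 50 after the annotated start, 300 in all) were at hand for 6 of the 8 genes and were searched on both strands. The windows of SREBF2, INSIG1, DHCR7 and IDI1 are shown, since these 4 genes carried the calls described below. Capitals mark CACNCCAC, the core of the sterol regulatory element, and CCAAT, each as it reads on either strand, and each sequence runs 5′ to 3′ on the gene's strand.
SREBF2, chr22:41832855-41833154, plus strand: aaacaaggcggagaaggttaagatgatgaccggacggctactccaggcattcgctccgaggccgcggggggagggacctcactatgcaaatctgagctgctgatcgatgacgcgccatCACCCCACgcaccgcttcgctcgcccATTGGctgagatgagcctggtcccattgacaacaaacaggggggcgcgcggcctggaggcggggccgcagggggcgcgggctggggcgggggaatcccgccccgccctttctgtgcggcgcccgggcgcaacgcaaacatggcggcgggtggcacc
INSIG1, chr7:155297628-155297927, plus strand: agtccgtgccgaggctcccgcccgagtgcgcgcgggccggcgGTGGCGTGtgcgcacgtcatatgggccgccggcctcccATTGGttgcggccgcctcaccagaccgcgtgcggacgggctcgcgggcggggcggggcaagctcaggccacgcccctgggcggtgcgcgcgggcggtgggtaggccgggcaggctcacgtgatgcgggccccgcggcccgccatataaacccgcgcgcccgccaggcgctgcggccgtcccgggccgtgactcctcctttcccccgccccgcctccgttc
DHCR7, chr11:71448344-71448643, minus strand: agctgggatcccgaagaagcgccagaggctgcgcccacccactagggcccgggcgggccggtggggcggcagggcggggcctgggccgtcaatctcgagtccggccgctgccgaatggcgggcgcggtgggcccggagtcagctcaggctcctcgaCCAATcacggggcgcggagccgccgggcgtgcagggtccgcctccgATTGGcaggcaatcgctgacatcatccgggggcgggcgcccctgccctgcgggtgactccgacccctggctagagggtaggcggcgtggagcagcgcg
IDI1, chr10:1056655-1056954, minus strand: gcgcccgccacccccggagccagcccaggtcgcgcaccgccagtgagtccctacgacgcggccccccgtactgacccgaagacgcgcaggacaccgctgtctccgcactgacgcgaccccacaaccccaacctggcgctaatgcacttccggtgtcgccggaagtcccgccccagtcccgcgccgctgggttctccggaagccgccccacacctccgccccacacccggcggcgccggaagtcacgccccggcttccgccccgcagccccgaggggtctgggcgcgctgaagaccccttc

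CACNCCAC occurred in the SREBF2 and INSIG1 windows, once each, and in 5.87% of all 35116 promoter windows. In SREBF2 it began 132 bases before the start and was part of the longer form TCACNCCAC, which 1.13% of windows hold. In INSIG1 it began 208 bases before the start, on the opposite strand. The windows of HMGCS1, IDI1, LSS and DHCR7 did not hold these letters. CCAAT was found 2 times each in the HMGCS1 and DHCR7 windows, 1 time each in those of SREBF2, INSIG1 and LSS, and not in that of IDI1, against 34.6% of all windows with at least 1. GGGCGG occurred in all 6 windows, from 2 times in HMGCS1 to 7 times in LSS, and in 45% of all windows. None of these motifs overlapped CACNCCAC in the 2 windows that held it, except its own longer form.

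Across the series the 8 libraries held between 12095123 and 23166405 counted read pairs, with the smallest in control replicate 2. Levels are given as CPM, counts scaled to the TMM-corrected total of the library, and in changes log2FC is the log2 fold change from edgeR. A gene was called higher or lower at a Benjamini-Hochberg adjusted p under 0.05 and an absolute log2FC over 0.6. The 2 libraries of a condition were most alike in MetaICM (median absolute log2 difference 0.121) and least alike in control (0.236). The fibroblast markers had a summed level of 10589.5 to 22397 CPM in every library, lowest after 6 days of ICM. Of these 8 markers, 6 and 5 were called lower at 3 and 6 days of ICM, beside 13.2% and 17.2% of all genes tested. Of 10 markers of other cell types, 7, among them EPCAM, PECAM1 and ALB, stayed at or below 1.29 CPM, while the summed level of the 10 was 136 to 157 CPM in control, 57 to 58.4 at 3 days, 52.7 to 57.2 at 6 days and 79 to 80.1 in MetaICM. Most of this sum came from MYH11 and KRT18, which were called lower, and from CD68, which was called higher, at both times of ICM. Their part in the results below was not tested. In such bulk libraries, fewer cells with an RNA and less of it per cell cannot be told apart.

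Which of the genes responded to ICM, and when, was asked first. After 3 days, 3 of the 8 genes rose and none fell, against 8.85% of all 15692 genes tested called higher and 13.2% called lower. INSIG1 rose 2.05-fold, DHCR7 1.87-fold and IDI1 1.64-fold. After 6 days, DHCR7 (2.35-fold) and IDI1 (1.95-fold) were called higher, and SREBF2 was called lower, 1.53-fold. At this time 13.3% of 15950 genes were called higher and 17.2% lower, and the 2 of 8 and 1 of 8 called lie close to these shares. At an edgeR adjusted p under 0.05 with no fold cutoff, 4 genes were higher and 1 lower at 3 days, beside 13% and 15.9% of all genes. At 6 days 5 were higher and 1 lower, beside 20.5% and 21.7%. At each time 5 genes had both libraries above both control libraries and 1 had both below. Over all genes these shares were 33.7% and 31.8% at 3 days and 36.6% and 36.1% at 6 days. The median log2FC of the 8 genes was 0.33 at 3 days and 0.40 at 6 days, beside 0.01 and -0.0013 over all genes tested. Scaling by library totals in place of TMM moved the share of all calls at 3 days that were higher from 40.19% to 50.25%, with the same counts for the 8 genes.

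**Figure D1:**
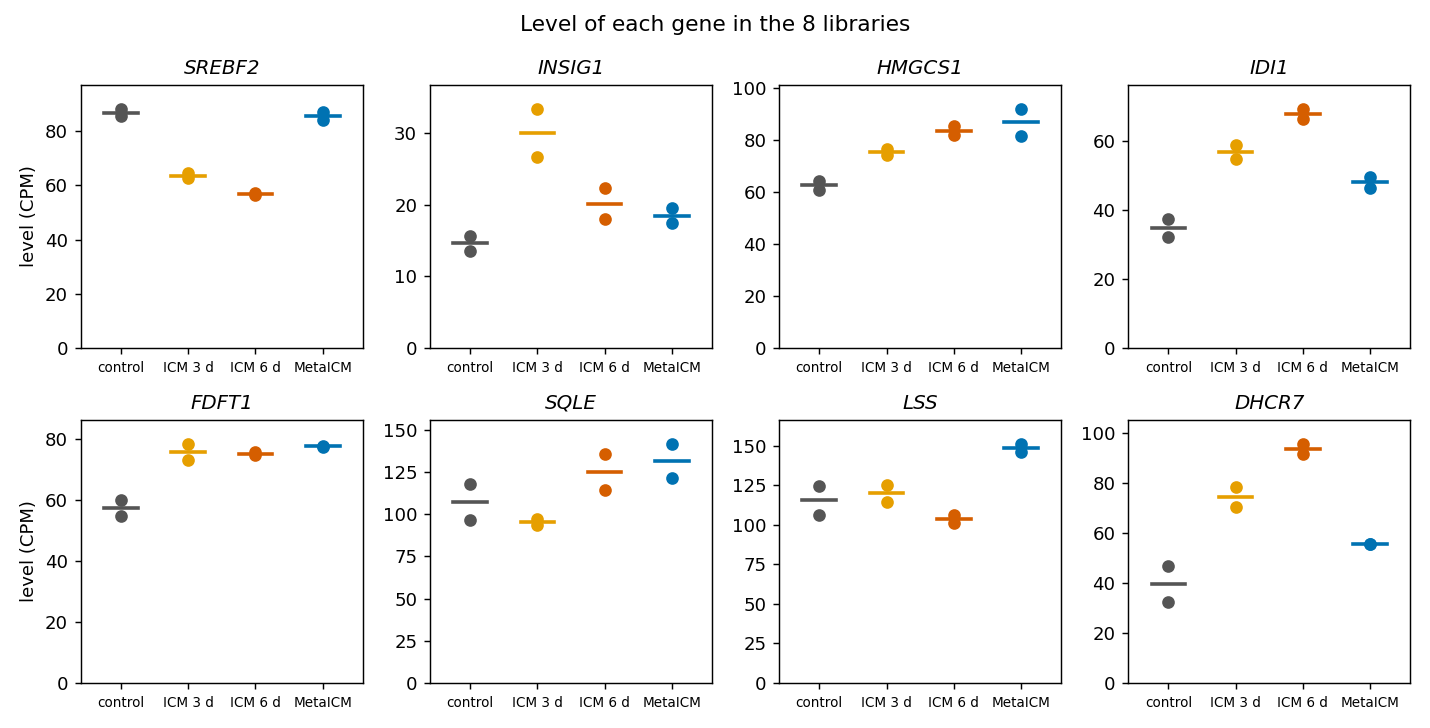
Level of each of the 8 genes (vertical axis, CPM, from 0) in control, 3 days of ICM, 6 days of ICM and MetaICM. Points are single libraries, 2 per condition, and lines are their means. DHCR7 climbs from 32.4 to 46.7 CPM in control to 91.6 to 95.6 CPM with 6 days of treatment, whereas SREBF2 falls from 85.5 to 88.2 CPM to 56.4 to 57.3 CPM.

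SREBF2 (chromosome 22 of hg19, 42229109 to 42303309, plus strand) stood at 88.2 and 85.5 CPM in the control libraries. It gave 64.5 and 62.8 CPM with 3 days of treatment, 56.4 and 57.3 CPM with 6 days, and 84.3 and 87.2 CPM in MetaICM. Both ICM times lay below control and MetaICM with no overlap, and control and MetaICM overlapped. The log2FC against control was -0.45 ± 0.13 (SE, n = 2 libraries per condition) at 3 days, with an edgeR adjusted p of 0.0179 but short of the fold cutoff. At 6 days it was -0.62 ± 0.11 with an edgeR adjusted p of 0.00145. That call lies close to the cutoff of 0.6, and was lost with library totals (-0.57), with all genes that have a count in the fit (-0.59) and without ICM 6 days replicate 1 (-0.60). Between 6 and 3 days the difference was -0.17 ± 0.10 (edgeR adjusted p = 0.239). SREBF2 shares 254 of its 5757 exon bases with SREBF2-AS1 on the other strand, which had between 53 and 95 counts per library, against 932 to 2008 for SREBF2. Pairs were counted without regard to strand, so pairs on the shared part cannot be assigned and were not counted.

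INSIG1 (chromosome 7, 155089482 to 155101945, plus strand) was highest after 3 days of treatment. It gave 15.7 and 13.5 CPM in control, 33.4 and 26.6 CPM at 3 days of ICM, 22.3 and 18 CPM at 6 days, and 17.5 and 19.5 CPM in MetaICM. The 3 day libraries stood above all others, and those of 6 days and MetaICM overlapped each other and lay above control. The log2FC against control was 1.04 ± 0.17 at 3 days (edgeR adjusted p = 0.000824) and 0.45 ± 0.16 at 6 days (edgeR adjusted p = 0.0478), the latter short of the fold cutoff. From 3 to 6 days it differed by -0.59 ± 0.14 (edgeR adjusted p = 0.00477), also just short of it. Without ICM 3 days replicate 2 or without ICM 6 days replicate 1, this last difference passed (-0.74 in each case).

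DHCR7 (chromosome 11, 71145457 to 71159477, minus strand) encodes the reductase that turns 7-dehydrocholesterol into cholesterol at the end of the pathway. Its level was 46.7 and 32.4 CPM in control, 78.4 and 70.2 CPM at 3 days, 95.6 and 91.6 CPM at 6 days, and 55.5 and 55.7 CPM in MetaICM. The 4 conditions did not overlap, in the order control, MetaICM, 3 days, 6 days, but the control libraries were far apart (39.6 ± 10.2 CPM, SD, n = 2). The log2FC against control was 0.90 ± 0.17 at 3 days (edgeR adjusted p = 0.00189) and 1.23 ± 0.16 at 6 days (edgeR adjusted p = 0.000172). Leaving out each library in turn gave 0.65 to 1.20 and 1.00 to 1.52. The difference between 6 and 3 days, 0.33 ± 0.10, had an edgeR adjusted p of 0.0209 and was under the cutoff.

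IDI1 (chromosome 10, 1085092 to 1102644, minus strand) encodes the isomerase that interconverts the isopentenyl and dimethylallyl units from which all isoprenoids are built. It gave 32 and 37.4 CPM in control, 58.9 and 54.7 CPM at 3 days, 69.2 and 66.4 CPM at 6 days, and 49.5 and 46.4 CPM in MetaICM. No 2 conditions overlapped, and the order was that of DHCR7. The log2FC against control was 0.71 ± 0.14 at 3 days (edgeR adjusted p = 0.00308) and 0.96 ± 0.13 at 6 days (edgeR adjusted p = 0.000209). Without ICM 3 days replicate 1 the 3 day value was 0.64, with an edgeR adjusted p of 0.0501. IDI1 overlaps WDR37 and IDI2-AS1, both on the other strand, over 493 of its 4327 exon bases. Its counts leave out pairs that fell on these shared bases. In raw counts, WDR37 had 535 and 469 in control, 1131 and 806 at 3 days, 820 and 781 at 6 days, and 712 and 776 in MetaICM. IDI2-AS1 had 15 and 22 in control, 72 and 36 at 3 days, 49 and 44 at 6 days, and 44 and 49 in MetaICM. These counts are not scaled to library totals, which were smallest in control replicate 2, so they do not give a change between conditions.

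The other 4 genes were not called in any comparison. HMGCS1 (chromosome 5, 43287572 to 43313514) encodes the cytosolic synthase of HMG-CoA, at the head of the pathway. Its level was 60.8 and 64.4 CPM in control, 74.4 and 76.5 CPM at 3 days, 81.8 and 85.6 CPM at 6 days, and 92.1 and 81.7 CPM in MetaICM. All treated libraries lay above control, and MetaICM overlapped with 6 days. Against control its log2FC was 0.27 ± 0.13 at 3 days (edgeR adjusted p = 0.141) and 0.42 ± 0.11 at 6 days (edgeR adjusted p = 0.014).

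FDFT1 (chromosome 8, 11653082 to 11696818) encodes squalene synthase, the first enzyme committed to sterols. It gave 60 and 54.7 CPM in control, 78.5 and 73.1 CPM at 3 days, 75.7 and 74.6 CPM at 6 days, and 77.8 and 77.5 CPM in MetaICM. Control stood below all 6 other libraries, which covered a narrow range. The log2FC was 0.40 ± 0.13 at 3 days and 0.38 ± 0.11 at 6 days, with edgeR adjusted p of 0.0392 and 0.0211.

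SQLE (chromosome 8, 126010747 to 126034525) encodes squalene monooxygenase, an oxygen-dependent and rate-limiting step. Its libraries gave 118 and 96.9 CPM in control, 97.5 and 93.8 CPM at 3 days, 136 and 114 CPM at 6 days, and 142 and 121 CPM in MetaICM. Control overlapped with both ICM times. Its log2FC was -0.17 ± 0.13 at 3 days and 0.21 ± 0.13 at 6 days, and the difference between the times, 0.38 ± 0.10, had an edgeR adjusted p of 0.00939 and stayed under the cutoff.

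LSS (chromosome 21, 47608360 to 47648738) encodes lanosterol synthase, which closes the sterol rings. It gave 125 and 106 CPM in control, 125 and 115 CPM at 3 days, 101 and 106 CPM at 6 days, and 151 and 146 CPM in MetaICM. Control overlapped with both ICM times, and only MetaICM stood apart, above the rest. The log2FC against control was 0.05 ± 0.13 at 3 days (edgeR adjusted p = 0.795) and -0.16 ± 0.12 at 6 days (edgeR adjusted p = 0.309). The snoRNA SNORD159 lies within LSS and had 25 to 65 counts, against 1280 to 3357 for LSS.

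Between genes, levels were compared per kilobase of exon. In control SQLE was the most abundant, with 39.7 and 32.7 CPM per kilobase, and LSS was next, with 24.6 and 20.9. INSIG1 was the least abundant, with 4.93 and 4.24 CPM per kilobase. After 6 days of ICM DHCR7, with 35.9 and 34.4 CPM per kilobase, had passed LSS (20 and 21) and stood below SQLE (45.8 and 38.6).

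**Figure D2:**
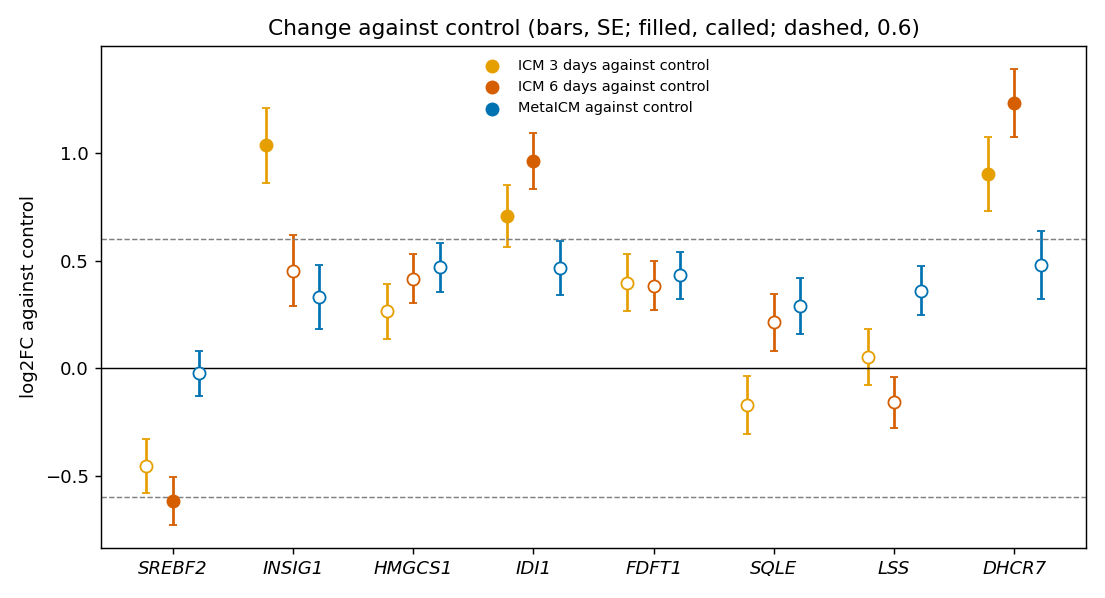
log2FC of each gene against control (vertical axis) for 3 days of ICM, 6 days of ICM and MetaICM, from edgeR with 2 libraries per condition. Bars are SE, filled points were called, and dashed lines mark 0.6 in each direction. INSIG1 is highest at 3 days, DHCR7 and IDI1 at 6 days, and for MetaICM every point lies within the dashed lines.

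MetaICM was then set against control and against ICM. Against control no gene of the 8 was called, while 7.41% of 15904 genes were called higher and 8.99% lower. By unadjusted p under 0.05, 7 of the 8 differed, beside 40.3% of all genes, and DESeq2 called 0 as well. The genes other than SREBF2 had a log2FC between 0.29 (SQLE) and 0.48 (DHCR7), and in all 7 both MetaICM libraries lay above both control libraries, as they did for 34.7% of all genes tested. For 5 of them, HMGCS1, IDI1, FDFT1, LSS and DHCR7, the edgeR adjusted p was under 0.05, between 0.0137 and 0.0463, which with a log2FC above 0 held for 13% of all genes. SREBF2 had a log2FC of -0.02 ± 0.10 (edgeR adjusted p = 0.89). DHCR7 passed the cutoff without control replicate 1 (0.78) and fell to 0.25 without control replicate 2.

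Set against ICM, MetaICM had 1 gene called at each time. Against 6 days of ICM, DHCR7 was lower by 1.68-fold (log2FC -0.75 ± 0.07, edgeR adjusted p = 2.54e-08), 1 of 8 genes where 12% of 16036 genes were called lower and 15.7% higher. SREBF2 (0.59 ± 0.07) and LSS (0.52 ± 0.07) had higher levels and IDI1 (-0.50 ± 0.08) a lower level, each with an edgeR adjusted p of at most 1.43e-05 but short of the cutoff. With no fold cutoff, 27.5% of all genes were higher and 26% lower at an adjusted p under 0.05 here. SREBF2 passed it without ICM 6 days replicate 2 (0.61) and without MetaICM replicate 1 (0.63). Against 3 days of ICM, INSIG1 was lower by 1.62-fold (log2FC -0.70 ± 0.13, edgeR adjusted p = 0.000441), where 10.3% of 16209 genes were called lower and 13.1% higher. This call was lost without ICM 3 days replicate 1 (-0.52). SREBF2 (0.43), SQLE (0.47) and LSS (0.31) had a positive and DHCR7 (-0.42) and IDI1 (-0.24) a negative log2FC against 3 days, with edgeR adjusted p under 0.05 but short of the cutoff, where 22.6% of all genes were higher and 20.3% lower without one. The comparisons with MetaICM share its libraries, and those with control share the control libraries.

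Between 6 and 3 days of ICM no gene of the 8 was called, where 3.53% of 15845 genes were called higher and 4.54% lower. An unadjusted p under 0.05 was reached by 5 of the 8 and by 32.3% of all genes, and DESeq2 called 0 as well. With an edgeR adjusted p under 0.05 and no fold cutoff, SQLE and DHCR7 were higher and INSIG1 lower at 6 days, beside 9.66% of all genes in each direction.

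The remaining enzymes of cholesterol synthesis were read from a list of 13 genes. After 3 days of ICM none rose and 1 fell, beside 8.85% of all genes called higher and 13.2% lower. The gene that fell was LBR, which encodes a sterol C14 reductase of the nuclear membrane and had a log2FC of -0.86 ± 0.13. It gave 91.5 and 89.7 CPM in control and 48.6 to 55.8 CPM in the ICM libraries. At 6 days LBR was again lower (-0.73 ± 0.11), while TM7SF2 (0.70 ± 0.23), whose product catalyses the same C14 reduction as LBR, and HSD17B7 (0.94 ± 0.19), a 3-ketosteroid reductase of the pathway, were higher. The 2 higher and 1 lower of 13 at this time lie near the 13.3% and 17.2% of all genes called. With no fold cutoff, 8 of the 13 were higher and 1 lower at an edgeR adjusted p under 0.05. The shares of all genes by that rule were 20.5% and 21.7%. The median log2FC of the 13 at 6 days was 0.46, beside -0.0013 over all genes tested. Without control replicate 1 the count was 2 higher (MVD and FDPS) at 3 days and 6 higher at 6 days, and the 6 day count was 1 higher without control replicate 2, ICM 6 days replicate 1 or ICM 6 days replicate 2.

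In MetaICM, 7 of the 13 enzymes rose against control and none fell, beside the 7.41% of all genes called higher, and their median log2FC was 0.62, beside -0.0011 over all genes tested. The 3 largest changes were those of TM7SF2 (1.04 ± 0.20), PMVK (0.87 ± 0.22) and MVD (0.83 ± 0.21), the last 2 being kinase and decarboxylase of the mevalonate steps. MVD gave 28.2 and 15.6 CPM in control and 38.3 and 40.8 CPM in MetaICM. The count was 3 without control replicate 2 (PMVK, TM7SF2 and MSMO1), and 3 without either MetaICM library (MVD, TM7SF2 and MSMO1). Against 6 days of ICM, PMVK was higher, a call lost without ICM 6 days replicate 1, and HSD17B7 lower. Against 3 days PMVK and MVD were higher, with the call of MVD lost without ICM 3 days replicate 2, and none was lower. Whether these 13 enzymes and the 8 genes differ from each other was not tested.

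**Figure D3:**
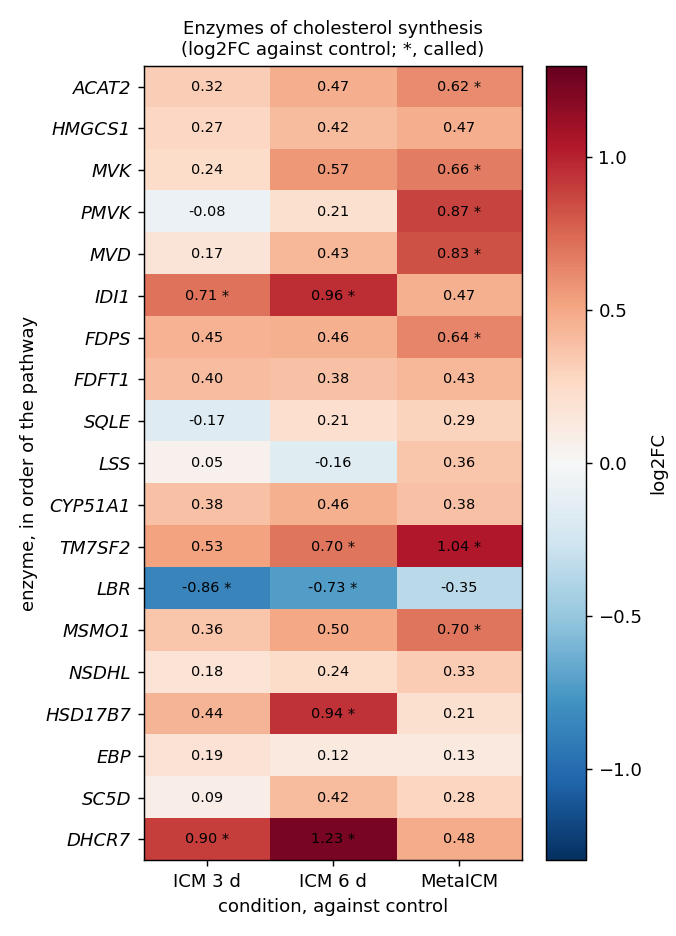
log2FC against control (numbers and colour) of 19 enzymes of cholesterol synthesis, ordered from the start of the pathway (top) to its end (bottom), for 3 days of ICM, 6 days of ICM and MetaICM. Asterisks mark calls, which lie at IDI1, HSD17B7, TM7SF2 and DHCR7 (higher) and LBR (lower) for ICM, and at 7 enzymes, all higher, for MetaICM.

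Of 9 genes that control SREBP processing, 1 fell at 3 days, ERLIN1 (-0.69 ± 0.15), and 1 rose at 6 days, ERLIN2 (0.83 ± 0.13), near the 13.2% of all genes called lower at 3 days and the 13.3% called higher at 6 days. Without control replicate 1 ERLIN1 was not called, and without control replicate 2 there were 2 higher and 1 lower at 6 days. In MetaICM 1 rose and 2 fell without control replicate 1 (ERLIN2, INSIG2 and MBTPS2), where edgeR and DESeq2 called 0 against control with all libraries and 3 of the 9 had an unadjusted edgeR p under 0.05, a smaller share than the 40.3% of all genes. SREBF1, the paralogue of SREBF2, and INSIG2, that of INSIG1, were looked up after their values were seen. Against control at 3 and 6 days the log2FC was 0.06 and -0.12 for SREBF1 and -0.01 and 0.30 for INSIG2, none of them called.

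Uptake and transport were read from 15 genes. Of these 3 rose and 3 fell at 3 days, and 3 rose and 2 fell at 6 days. Over all genes 8.85% were called higher and 13.2% lower at 3 days, and 13.3% and 17.2% at 6 days, so the 6 day counts lie near the background. NPC1, which exports cholesterol from lysosomes, rose at both times (1.23 ± 0.13 and 1.33 ± 0.12), from 94.8 and 80.7 CPM in control to 204 to 223 CPM under ICM, and stood at 71.3 and 70 CPM in MetaICM. TMEM97, which encodes a sterol-responsive binding partner of NPC1, had 14.8 and 15.4 CPM in control, 3.91 to 6.28 CPM in the ICM libraries and 16.6 and 17.8 CPM in MetaICM, and fell at both times (-1.90 ± 0.21 and -1.47 ± 0.19). Among receptors, LRP8 rose at 6 days (0.99 ± 0.12) and lay just short of the fold cutoff at 3 days (0.597, edgeR adjusted p = 0.00596), while SCARB1 rose at 3 days (0.83 ± 0.15) and lay just short of it at 6 days (0.5999, edgeR adjusted p = 0.00612). VLDLR fell at 3 days (-0.95 ± 0.15) and had -0.20 ± 0.17 at 6 days. In MetaICM 2 rose and 1 fell against control, led by MYLIP (1.18 ± 0.30) and VLDLR (-0.86 ± 0.14), where 7.41% and 8.99% of all genes were called. The 6 day counts were 6 and 1 with library totals, and 5 rose without control replicate 2, while 1 fell without control replicate 1 or ICM 6 days replicate 2. In MetaICM 1 rose without MetaICM replicate 1 and none without MetaICM replicate 2.

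The lists next to the pathway moved as follows. Of 13 genes of fatty acid synthesis 5 rose and none fell at 3 days, and 4 rose and 1 fell at 6 days, against the same 8.85% and 13.2% of all genes at 3 days and 13.3% and 17.2% at 6 days. The desaturase gene FADS1 had 75.1 and 65.9 CPM in control, 281 to 345 CPM under ICM and 79.5 and 83.4 CPM in MetaICM, with a log2FC of 2.21 ± 0.13 and 2.09 ± 0.12. ME1, the malic enzyme that supplies NADPH, rose by 1.64 ± 0.12 and 1.58 ± 0.11. Against control 1 rose and 1 fell in MetaICM (ACSS2 0.62 ± 0.13, ACACB -0.80 ± 0.14), close to the 7.41% and 8.99% of all genes, the first lost without control replicate 2 or either MetaICM library and the second without MetaICM replicate 2. Without control replicate 2, 1 gene of fatty acid synthesis, ELOVL5, fell at 3 days. Without control replicate 1, 2 genes of the list rose in MetaICM.

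Of 9 genes of efflux, esterification and oxysterols, 8 could be tested against control, and 3 rose and 1 fell at both times of ICM, the 1 of 8 lower being near the 13.2% and 17.2% of all genes and the 3 of 8 higher standing against 8.85% and 13.3%. ABCA1, the cholesterol exporter, rose at 3 days (1.09 ± 0.12; 0.52 ± 0.11 and not called at 6 days), and NR1H2, a sterol-sensing nuclear receptor, at both times (0.93 ± 0.16 and 0.97 ± 0.16). The gene that fell, CH25H, had at most 1.07 CPM in any library, and its call was lost without control replicate 1 at either time and without either ICM library at 3 days. The 3 day count of genes that rose was 5 without control replicate 1. In MetaICM 1 rose and 1 fell (NR1H3 0.82 ± 0.21, CYP27A1 -0.62 ± 0.16), near the 7.41% and 8.99% of all genes, with neither called without either MetaICM library and 2 genes higher without control replicate 1. Of 13 genes of the non-sterol isoprenoid branch, 3 rose at 3 days, and 3 rose and 1 fell at 6 days, beside 8.85% of all genes called higher at 3 days and 13.3% higher and 17.2% lower at 6 days. Among them GGPS1, the geranylgeranyl diphosphate synthase, rose by 0.78 ± 0.19 and 0.93 ± 0.17. At 3 days 1 rose and 1 fell without ICM 3 days replicate 1 and 1 fell without control replicate 2, and at 6 days none fell without either ICM 6 days library. In MetaICM 2 rose, ICMT (0.63 ± 0.13) and RABGGTA (0.64 ± 0.16), beside 7.41% of all genes, with none without control replicate 2 or MetaICM replicate 2 and 1 without MetaICM replicate 1.

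**Figure D4:**
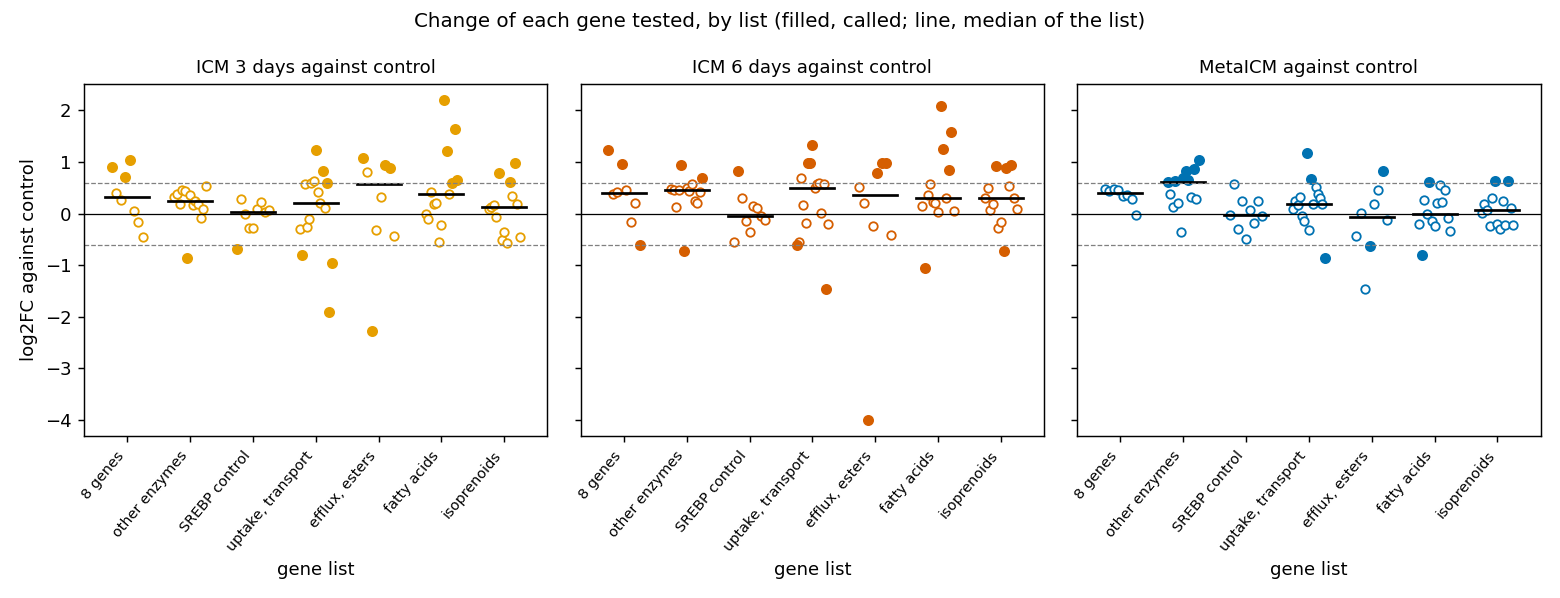
log2FC against control (vertical axis) of each gene tested in the 8 genes and the 6 lists of sterol and lipid genes (horizontal axis; the marker lists are not drawn), for 3 days of ICM, 6 days of ICM and MetaICM. Filled points were called, black lines are medians of the lists and dashed lines mark 0.6 in each direction. The other enzymes have their highest median in MetaICM (0.62), and the highest and lowest points drawn at 3 days are FADS1 (2.21) and CH25H (-2.27).

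The genes with the most similar pattern over the 4 conditions were found for each of the 8, as the smallest root mean square difference between centred log2 CPM means among 16591 genes. For DHCR7 these were LIX1L-AS1, ANKRD29 and MLKL, with differences of 0.0354 to 0.0443, and IDI1, NR1H2, GGPS1 and FADS2 lay among the 166 nearest genes. For IDI1 they were PNPLA2, SLC25A38 and STYXL1 (0.0126 to 0.0223). For INSIG1 the nearest gene was ABCG1, an exporter of cholesterol, with a difference of 0.0164, although ABCG1 had at most 1.28 CPM in any library and was not called. For SREBF2 the nearest were GDAP1, TBC1D1 and HNRNPAB (0.0194 to 0.0243). PGPEP1 was nearest to HMGCS1 (0.01), TRMT2A to FDFT1 (0.0091), FAM161B to SQLE (0.0032) and AKT2 to LSS (0.0069). These are descriptions over 4 condition means, with no test. The 166 nearest genes reached a difference of 0.0587 for FDFT1 and of 0.157 for INSIG1.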

How the data were processed

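Factory RNA-Seq of IMR90 was analysed in 8 libraries. STAR (version 2.6.0c) was used by the authors to align read pairs to hg19, and they deposited, for each library, the raw counts of read pairs over the exons of every RefSeq gene, made with featureCounts (version 1.6.3). Per the file headers, pairs were counted without strand, with both ends mapped, and pairs on several genes were not counted. Intronic reads, from which the paper took its nascent RNA changes, were not used here. The labels gave each library's condition.

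Conditions were compared 2 at a time (4 libraries) with edgeR (version 4.0.16, R 4.3.3): TMM, filterByExpr with a count minimum of 10, the quasi-likelihood test and Benjamini-Hochberg adjustment over all genes tested. The SE of a log2FC was its absolute value divided by the square root of the F statistic of that test. It draws on the spread estimated across genes, and not on the 2 libraries of a condition alone. All 8 genes passed the filter in every comparison. Library totals ran from 12095123 to 23166405 counts. Alternatives were DESeq2 (version 1.42.0), its size factors, upper-quartile factors, library totals, 2 other filters, all 8 libraries in one fit, a replicate block, an adjusted p under 0.01, thinning and each library left out in turn. Where this left a condition with 1 library, that library was assumed to vary like the others. On simulated data with 200 changed genes, 89% of those with an absolute log2FC of 1 were recovered for 3 days against control, with 4 false calls among 15723 genes. Every simulated gene had the same dispersion (spread between libraries beyond counting error). Changed genes were drawn only from those with higher mean counts, so these figures may not hold for the real libraries.

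The 8 genes and the lists were chosen with earlier results of these data known. The lists hold other enzymes of cholesterol synthesis, control of SREBP processing, cholesterol uptake and transport, efflux, esterification and oxysterols, fatty acid synthesis, the isoprenoid branch, fibroblast markers and markers of other cells. Some genes of these lists are not reported here and are in none of their counts. Genes named from a list were at most the 3 called genes of largest absolute log2FC per direction and comparison, and exceptions are marked or take part in a result without a library. The genes most alike were the 3 nearest per gene. Figures were drawn with matplotlib.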

Additional observations from a re-analysis of the deposited data

Results flagged for a closer look

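The responses to 3 and 6 days of ICM differed in a direct test between the times for 3 of the 8 genes at an edgeR adjusted p under 0.05, none past the fold cutoff. By the same rule without a fold cutoff, 9.66% of all 15845 genes tested were higher and 9.66% lower at 6 days. The log2FC of 6 against 3 days was -0.59 for INSIG1, 0.38 for SQLE and 0.33 for DHCR7, so INSIG1 was lower and the other two were higher at the later time.

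Among the 70 genes tested in the 6 related lists, 2 were called higher (2.86%) and 1 lower (1.43%) at 6 than at 3 days, no more than the 3.53% and 4.54% of all genes. VLDLR (0.75), a lipoprotein receptor, and ELOVL5 (0.76), a fatty acid elongase, were higher at 6 days, the call of VLDLR being lost without ICM 6 days replicate 1. ACACB (-0.96), an acetyl-CoA carboxylase, was lower.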

How the results depend on the processing

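Of the 672 log2FC values of the 8 genes recomputed under all alternatives, 13 changed sign, none larger than 0.119 in absolute size and none of them called. Among the alternatives other than leaving out a library, the number of the 8 genes called lower at 6 days of ICM against control became 0 in place of 1 with library totals and with all genes that have a count (SREBF2), the number lower at 6 against 3 days became 1 in place of 0 with library totals (INSIG1), and the number higher in MetaICM against 6 days became 1 in place of 0 after thinning (SREBF2, 0.64). The cause was not tested.

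Leaving out each library in turn gave 2 to 3 genes higher at 3 days against control, 0 to 1 lower at 6 days against control, 0 to 1 lower at 6 against 3 days, 0 to 1 higher in MetaICM against control, 0 to 1 higher in MetaICM against 6 days and 0 to 1 lower in MetaICM against 3 days.

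With the replicate block, 3 genes were higher at 3 days, and 2 higher and 1 lower at 6 days, as without it, and no other count of the 8 genes changed. Same-numbered libraries share only a number: the correlation of their deviations ran from -0.111 to 0.172. Over all genes the block moved the counts at 3 days from 1389 higher and 2067 lower to 1606 and 2309.

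Over all genes, MetaICM against control gave 1179 higher and 1430 lower, and 664 and 868 at an adjusted p under 0.01, 2116 and 1970 without control replicate 1, 816 and 807 without MetaICM replicate 1 and 469 and 580 without MetaICM replicate 2. At 3 days 851 were higher without ICM 3 days replicate 1, in place of 1389. At an adjusted p under 0.01, 2 in place of 7 other enzymes rose in MetaICM, and 1 in place of 2 at 6 days. DESeq2 called 1 in place of 2 there and 0 in place of 1 in MetaICM against 6 days. Of uptake genes at 6 days, 6 rose and 1 fell with library totals or with all genes that have a count, 5 rose with the replicate block or when all 8 libraries shared a fit, 2 rose and 1 fell at an adjusted p under 0.01, and 1 fell after thinning, in place of 3 and 2. Of uptake genes in MetaICM, 1 rose with DESeq2 and after thinning and 0 at an adjusted p under 0.01, in place of 2. The control and 3 day libraries together held 12095123 to 21230563 counts. For their comparison, the share of changes near the cutoff that would be called was not simulated.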
